A study of Mus musculus with 2 samples.

Results

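The genes described here encode 8 microtubule-associated proteins of neurons: Map1a, Map1b, Map2, Map4, Mapt, Map6, Dcx and Dclk1. Their m6A sites were taken from 2 single-base maps of mouse brain made by GLORI, an assay in which glyoxal and nitrite deaminate unmethylated adenosines, so that methylated adenosines are the ones still read as A. A site was assigned to a gene when it lay inside the GENCODE M21 gene interval on GRCm38 and on the strand of that gene. The 8 genes held 350 of the 79355 sites listed in the cerebellum and 654 of the 188295 listed in the cerebrum. Of these, 228 positions were listed in both libraries, and 776 in at least 1 of them, out of 219409 in all.

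Per the study's methods, both libraries came from 1 female F1r hybrid mouse at postnatal day 0, with a C57BL/6J mother and a PWK/PhJ father. The methods describe both poly(A)+ and ribo-depleted RNA, and their GLORI section does not name which was used. One library was made from the cerebellum and the other from the cerebrum, and both were GLORI-treated. With 1 library per tissue, and both tissues from the same animal, there was no replicate, so no difference between the tissues was tested. The files hold positions without methylation rates or read counts, so depth is unknown. A position missing from a list may carry no methylation, lie in an RNA that is not made, or have too few reads, and these cannot be told apart here. In bulk tissue, fewer cells that express a gene and less of its RNA per cell cannot be told apart either. Intervals given below are 95% Wilson intervals over sites or adenosines. They cover counting error only and treat neighbouring sites as independent.

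Microtubules are polar tubes of tubulin that carry transport along axons and dendrites and drive nuclear movement in migrating neurons. Microtubule-associated proteins bind their surface and stabilise, bundle or space them. MAP1A and MAP1B are made as polyproteins and cleaved into heavy and light chains, with MAP1B prominent in growing axons and MAP1A in mature neurons. MAP2, MAP4 and tau, the product of Mapt, share a carboxy-terminal microtubule-binding repeat domain. MAP2 marks dendrites, tau is enriched in axons, and MAP4 is the broadly expressed relative. MAP6, also called STOP, protects microtubules from cold. Doublecortin (Dcx) and doublecortin-like kinase 1 (Dclk1) share the doublecortin domain and act in neuronal migration.

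The tissue labels were checked by the sites on marker genes. Sites lay on 12 of 12 forebrain markers in the cerebrum and on 4 of 12 in the cerebellum, with 341 and 34 sites. Of 10 hindbrain markers, the cerebellum had sites on 4 and the cerebrum on 3, with 30 and 5 sites. En2, a midbrain and cerebellar transcription factor, had 9 sites in the cerebellum and none in the cerebrum. En1 had 6 and none, and Barhl1 12 and 1. In contrast, Gbx2 had 3 in each, and Lmx1a had none in the cerebellum and 1 in the cerebrum. Atoh1, Ptf1a, Skor2, Hoxa2 and Pcp2 had none in either. Of 8 markers of other cells, 2 and 4 carried sites, with 18 and 34 sites, most of them on Pdgfra of oligodendrocyte precursors (13 and 20), while the endothelial Cldn5, the mural Kcnj8 and the microglial Aif1 had none in either. Their part in the results below was not tested.

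The sequences around selected sites show the setting of these marks. Each is given 5′ to 3′ on the gene strand as 29 nt of GRCm38, with the 5-mer around the site in capitals. The first set covers each exon with at least 1000 coding nt that had a site of both libraries. It holds the one with the most other sites of the DRACH motif within 100 nt. DRACH is the 5-mer in which A, G or T, then A or G, precede the methylated A, followed by C and then A, C or T.
Map1a, exon 5, chr2:121304733-121304761, plus strand: ccccacctgagaTGACTggacagagggtt
Map1b, exon 5, chr13:99431147-99431175, minus strand: gccaactgaagtGGACTatagtccctctg
Map2, exon 7, chr1:66412861-66412889, plus strand: agggaagcagttTGACTctcccatgccaa
Map4, exon 7, chr9:110035112-110035140, plus strand: gggcatggccaaAGACAtgtctccactcc
Map6, exon 1, chr7:99268066-99268094, plus strand: ctggaaccagctGGACAaggcggacattg
Map6, last exon, chr7:99336723-99336751, plus strand: agcactagccaaGGACCaaggtcccatgc

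The second set holds the DRACH site of both libraries nearest downstream of the stop codon, which shows where the shared 3′ UTR sites of each gene begin. Map1a has no entry, because no position of its 3′ UTR was listed in both libraries.
Map1b, 32 nt from the stop codon, chr13:99425760-99425788, minus strand: accacaggatttGAACTgtgtttccagaa
Map2, 196 nt, chr1:66439189-66439217, plus strand: catccgcaacaaGGACAcatggctttaca
Map4, 519 nt, chr9:110082247-110082275, plus strand: caaacccaaaagAAACTgacaaacctctc
Mapt, 174 nt, chr11:104328347-104328375, plus strand: ggatttggctcgGGACTtcaaaatcagtg
Map6, 91 nt, chr7:99317749-99317777, plus strand: aaaactaattagAGACTtcccatctgcct
Dcx, 210 nt, chrX:143863327-143863355, minus strand: catccttttgagTGACTtttccagaactt
Dclk1, 41 nt, chr3:55533761-55533789, plus strand: cttaaccctttaAGACTctgagatttccc

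The 8 genes differed widely in the number and kind of their sites. In the cerebellum and the cerebrum, respectively, Map1a had 66 and 78 sites, Map1b had 78 and 100, and Map2 had 51 and 168. Map4 had 17 and 43, Mapt 34 and 50, Map6 43 and 66, Dcx 17 and 35, and Dclk1 44 and 114. Every gene had more sites in the cerebrum, whose list was longer as a whole. At DRACH adenosines, Map1a had 60 and 63 sites, Map1b 57 and 65, Map2 24 and 42, and Map4 14 and 24. Mapt had 26 and 31 DRACH sites, Map6 32 and 41, Dcx 11 and 18, and Dclk1 21 and 36. In all, 245 of 350 cerebellum sites were DRACH (70.0%, interval 65.0 to 74.6) and 320 of 654 cerebrum sites (48.9%, 45.1 to 52.8). Over all sites listed, the cerebellum had a DRACH share of 62.1% and the cerebrum one of 46.7%.

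**Figure D1:**
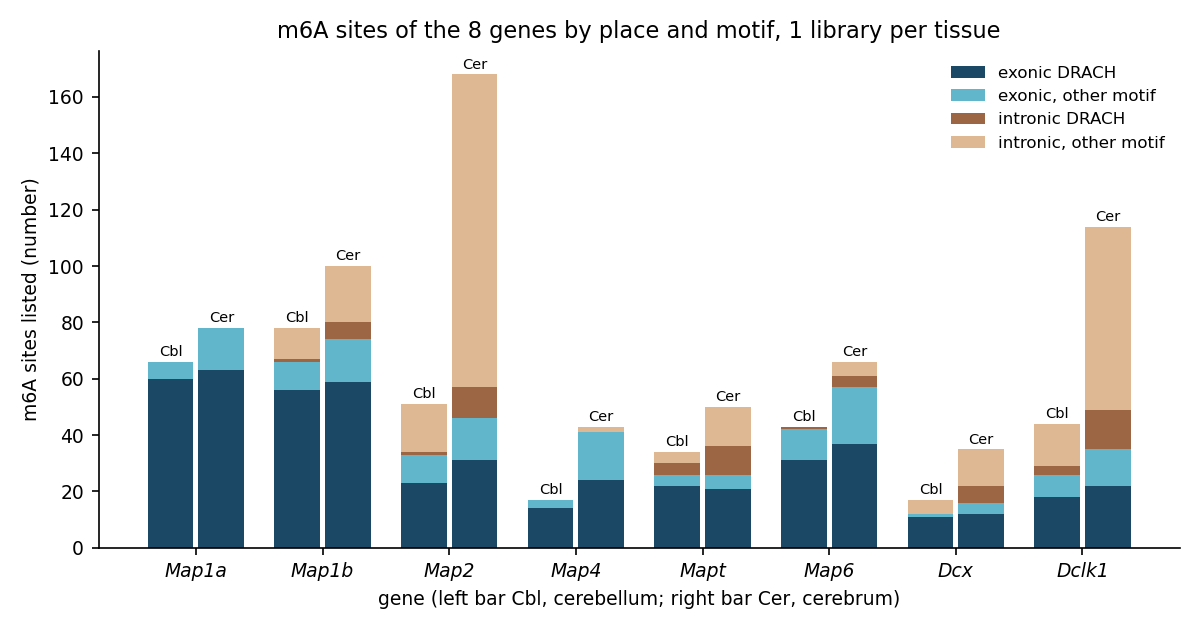
Number of listed m6A sites (vertical axis) of each gene (horizontal axis) in the cerebellum library (left bars) and the cerebrum library (right bars), stacked by place and motif. The dark exonic DRACH segments are similar in height in both libraries for Map1a and Map1b (60 and 63; 56 and 59), while intronic sites outside DRACH make up most of the tall cerebrum bars of Map2 (111) and Dclk1 (65).

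Positions listed in the cerebrum but not in the cerebellum were mainly intronic and outside DRACH. Of 426 such positions of the 8 genes, 228 were intronic non-DRACH (53.5%), 86 exonic non-DRACH, 67 exonic DRACH and 45 intronic DRACH. The cerebellum list had 235 exonic DRACH sites and the cerebrum list 269, a ratio of 1.14, whereas intronic sites outside DRACH numbered 52 and 230, a ratio of 4.42. Of the 230, Map2 held 111 and Dclk1 65. Over all sites listed, introns held 13215 in the cerebellum (16.7%) and 45262 in the cerebrum (24.0%). In the 8 genes they held 62 (17.7%) and 281 (43.0%). The intronic part was therefore larger in the cerebrum over all sites as well, but less so than in the 8 genes. The same split of cerebrum-only positions was not computed over all sites, so the 53.5% has no such share beside it. Over the 8 genes, DRACH sites on complete coding isoforms numbered 224 and 250, a ratio of 1.12, against 43941 and 75086 over all coding transcripts, a ratio of 1.71. The ratio was 1.05 for Map1a, 1.05 for Map1b, 0.955 for Mapt and 1.00 for Dcx. It was 1.09 for Map6, 1.17 for Dclk1 and 1.29 for Map2, while Map4, with 14 and 24 sites, came to 1.71. Per kb of the longest isoform, DRACH sites of coding transcripts were densest in Map1a (5.07 in the cerebellum, 5.33 in the cerebrum) and sparsest in Dcx (1.21 in each).

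Positions at DRACH were shared between the libraries more often than other positions. Of the 245 DRACH sites of the cerebellum, 208 were also listed in the cerebrum (84.9%, 79.9 to 88.8), compared with 81.0% over all cerebellum DRACH sites. The same 208 were 65.0% of the 320 DRACH sites of the cerebrum (59.6 to 70.0), compared with 45.3% over all cerebrum DRACH sites. Outside DRACH, 20 positions were shared, which were 19.0% of 105 in the cerebellum and 5.99% of 334 in the cerebrum. Over all non-DRACH sites these shares were 27.7% and 8.31%. Per gene, the shared DRACH sites made up between 71.4% (Map4) and 91.2% (Map1b) of the cerebellum list. They made up between 41.7% (Map4) and 81.0% (Map1a) of the cerebrum list.

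Sites on coding transcripts were placed on the longest isoform that covers them among those annotated with a 5′ UTR, a full coding sequence and a 3′ UTR, called complete isoforms here. In the cerebellum 164 of the 350 sites lay in coding sequence (46.9%, 41.7 to 52.1), 97 in 3′ UTRs (27.7%), 7 in 5′ UTRs (2.0%) and 62 in introns (17.7%). In the cerebrum 206 of 654 lay in coding sequence (31.5%, 28.1 to 35.2), 124 in 3′ UTRs (19.0%), 10 in 5′ UTRs (1.53%) and 281 in introns (43.0%). The remaining 20 and 33 lay on exons of other annotated transcripts. Over all sites listed, coding sequence held 30.2% and 27.1%, 3′ UTRs 41.5% and 33.9%, and introns 16.7% and 24.0%. Among DRACH sites on coding transcripts, coding sequence held 62.5% (56.0 to 68.6) in the cerebellum and 60.8% (54.6 to 66.6) in the cerebrum. Over all coding transcripts it held 39.97% and 41.4%, and 3′ UTRs held 57.3% and 55.7%, against 35.3% and 36.8% in the 8 genes.

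Very long coding exons, defined as exons with at least 1000 coding nt, held most of the coding sites. Of the DRACH sites in coding sequence, 127 of 140 in the cerebellum (90.7%, 84.8 to 94.5) and 138 of 152 in the cerebrum (90.8%, 85.1 to 94.4) lay in such exons. Over all coding transcripts the share was 53.4% and 50.1%. As a share of all DRACH sites on coding transcripts, very long coding exons held 56.7% (50.1 to 63.0) and 55.2% (49 to 61.2) in the 8 genes, against 21.3% and 20.7% overall. Map1a decided part of this value: without it the share was 41.5% and 41.7%.

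**Figure D2:**
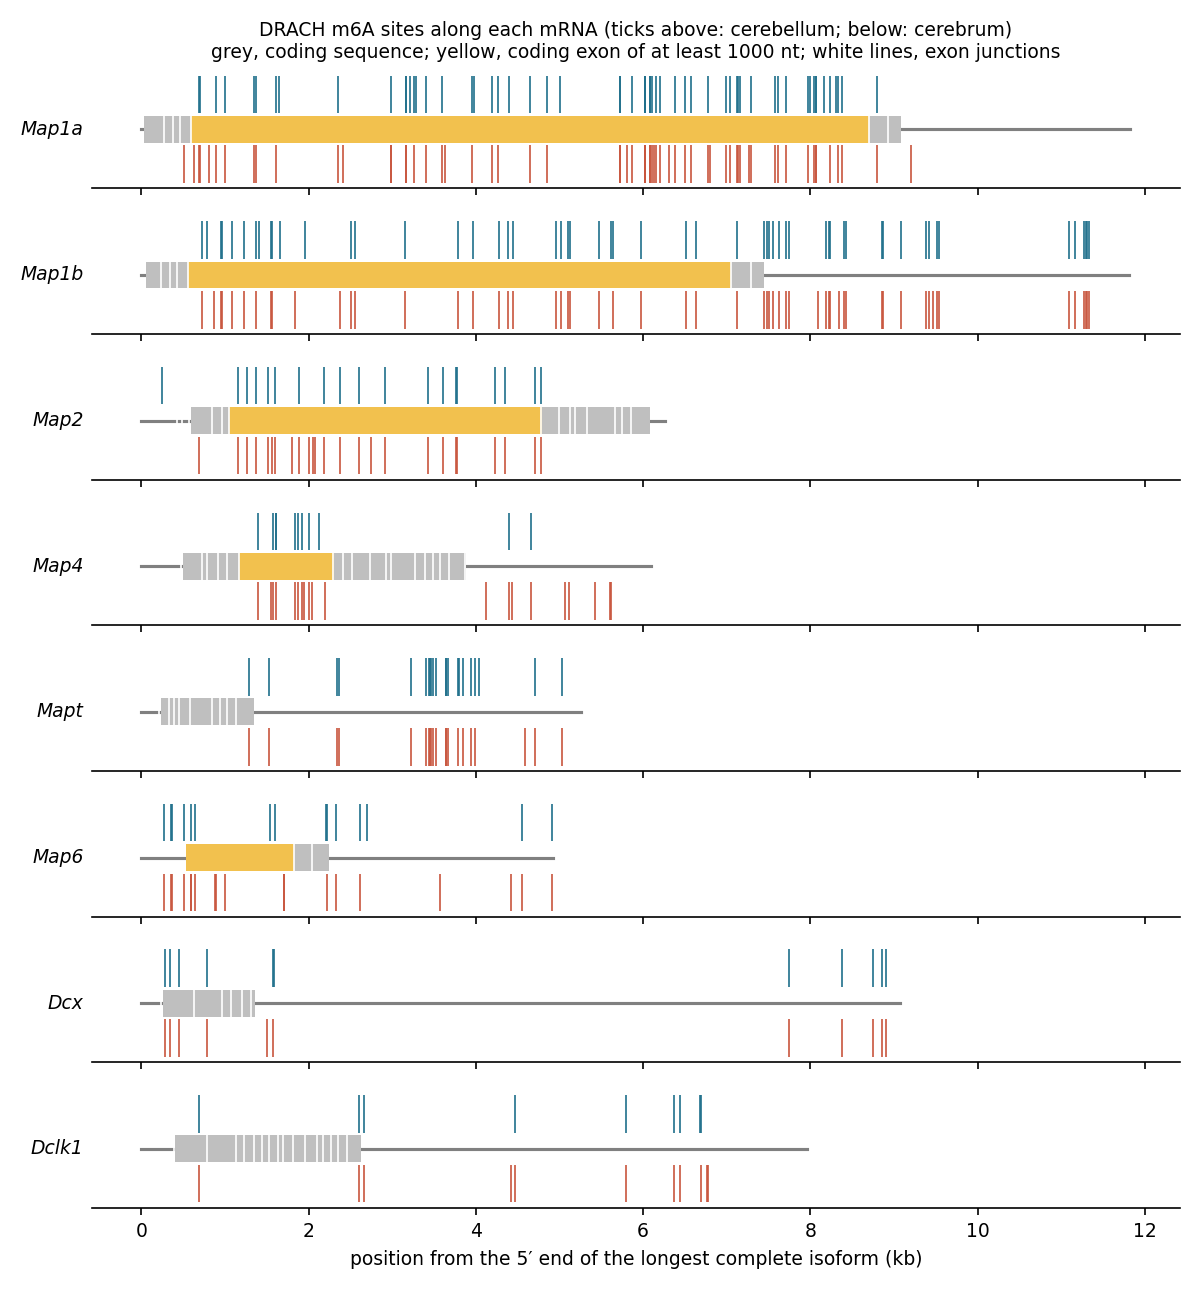
DRACH sites along the longest complete isoform of each gene, with position from the 5′ end in kb on the horizontal axis. Ticks are above for the cerebellum library and below for the cerebrum library. The coding sequence is grey, with exons of at least 1000 coding nt in yellow and exon junctions as white lines. Ticks fill the yellow exons of Map1a, Map1b and Map2, and only 1 tick, in the cerebrum, lies past the coding sequence of Map1a. They cluster in the 3′ UTR of Mapt and lie at both ends of the 3′ UTR of Dcx.

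To set the sites against what the sequence offers, the share of DRACH adenosines listed as sites was computed on the longest complete isoform of every coding gene with a site. Of 982420 such adenosines, 4.4% were listed in the cerebellum and 7.51% in the cerebrum. The 8 genes had 1407 of them, of which the cerebellum list held 203 (14.4%, 12.7 to 16.4) and the cerebrum list 227 (16.1%, 14.3 to 18.1). In very long coding exons, 13% of all DRACH adenosines were listed in the cerebellum and 21.5% in the cerebrum. In those of the 8 genes it was 120 of 521 (23.0%, 19.6 to 26.8) and 131 of 521 (25.1%, 21.6 to 29.04). In the cerebellum the interval of the 8 genes lay above the overall share, also without Map1a (18.9%, 14.99 to 23.5). In the cerebrum the 8 genes were not separated from it, since the interval included the overall share without Map1a (22.0%, 17.8 to 26.8), Map2, Map4 or Map6 and on the isoforms tagged as principal in the annotation (24.1%, 20.6 to 27.9).

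Short coding exons, with under 400 coding nt, and 3′ UTRs gave lower shares. Over all coding genes, 0.962% of DRACH adenosines in short coding exons were listed in the cerebellum and 1.97% in the cerebrum. The 8 genes had 12 of 264 (4.55%, 2.62 to 7.78) and 13 of 264 (4.92%, 2.90 to 8.24). Because the limit is on coding nt, this class includes the coding part of long last exons. Such last exons held 2 of the 12 cerebellum sites in Map6 and 1 each in Mapt, Map1b and Dclk1. In 3′ UTRs, 5.32% were listed overall in the cerebellum and 8.82% in the cerebrum, against 66 of 583 (11.3%, 8.998 to 14.1) and 79 of 583 (13.6%, 11.0 to 16.6) in the 8 genes. Very long coding exons exceeded short ones 5.07-fold and 5.11-fold in the 8 genes, and 13.5-fold and 10.9-fold over all coding genes. Whether a high transcript level, which raises coverage, goes with these shares was not tested, since the files give no expression values.

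**Figure D3:**
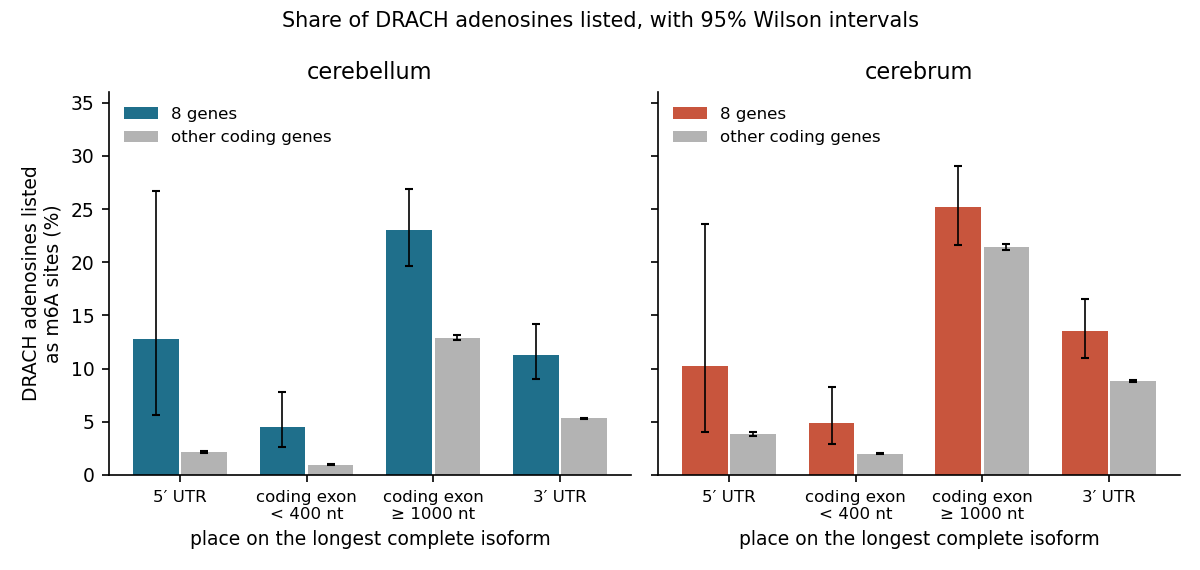
Percent of DRACH adenosines listed as m6A sites (vertical axis) by place on the longest complete isoform (horizontal axis) in the cerebellum (left panel) and cerebrum (right panel), for the 8 genes (coloured bars) and other coding genes (grey bars), with 95% Wilson intervals. In both panels exons with at least 1000 coding nt have the tallest bar of the 8 genes (23.0% and 25.1%). Those with under 400 coding nt have the lowest (4.55% and 4.92%).

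Map1a (chr2:121289600-121310832, plus strand) carried the most DRACH sites of the set in the cerebellum, nearly all in exon 5. This exon of 8104 coding nt is 89.6% of its coding sequence and lies in both complete isoforms (2 of 2). It held 59 of the 60 DRACH sites of the cerebellum and 60 of the 63 of the cerebrum, 50 of them shared. Of the 198 DRACH adenosines of exon 5, 29.8% (23.9 to 36.5) and 30.3% (24.3 to 37.0) were listed. In contrast, none of the 62 DRACH adenosines of its 3′ UTR was listed in the cerebellum and 1 in the cerebrum (1.61%, 0.285 to 8.59). That position, 121 nt past the stop codon, is the only 3′ UTR site of Map1a in either list.

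Sites in exon 5 of Map1a ran from position 121299294 to 121307046 of an exon that spans 121299269 to 121307372. The median gap between neighbouring DRACH sites was 72 nt in each library, and the longest was 717 nt in the cerebellum and 867 nt in the cerebrum. In the densest 500 nt, chr2:121304391-121304890, 11 of the 15 DRACH adenosines were listed in the cerebellum and 13 of 15 in the cerebrum. The Map1a sequence above comes from this stretch and has 7 other DRACH sites within 100 nt. Map1a ranked 11 among 11868 genes by the number of DRACH adenosines listed in the cerebellum and 25 in the cerebrum. By the share listed it stood above 97.3% and 93.1% of the 8407 genes with at least 50 DRACH adenosines.

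Map1b (chr13:99421446-99516540, minus strand) combined a methylated very long exon with a methylated 3′ UTR. Its exon 5 has 6490 coding nt, 87.8% of the coding sequence, and held 30 cerebellum and 28 cerebrum DRACH sites, 25 of them shared. These are 18.0% (12.9 to 24.5) and 16.8% (11.9 to 23.2) of its 167 DRACH adenosines, below the 29.8% and 30.3% of exon 5 of Map1a, with intervals that overlap narrowly in the cerebellum and do not overlap in the cerebrum. The 3′ UTR of 4360 nt had 24 and 27 of 93 DRACH adenosines listed (25.8%, 18.0 to 35.5; 29.03%, 20.8 to 38.9). All 24 of the cerebellum positions were also listed in the cerebrum.

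The 3′ UTR sites of Map1b began close to the stop codon and ended in a distal group. The GAACT site shown above lies 32 nt past the stop codon, and a coding DRACH site of both libraries, also GAACT, lies 7 nt before the stop codon. A gap of 1553 nt without a DRACH site separated the group within 2089 nt of the stop codon from 6 sites between 3642 and 3889 nt. All 6 distal sites were listed in both libraries.

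**Figure D4:**
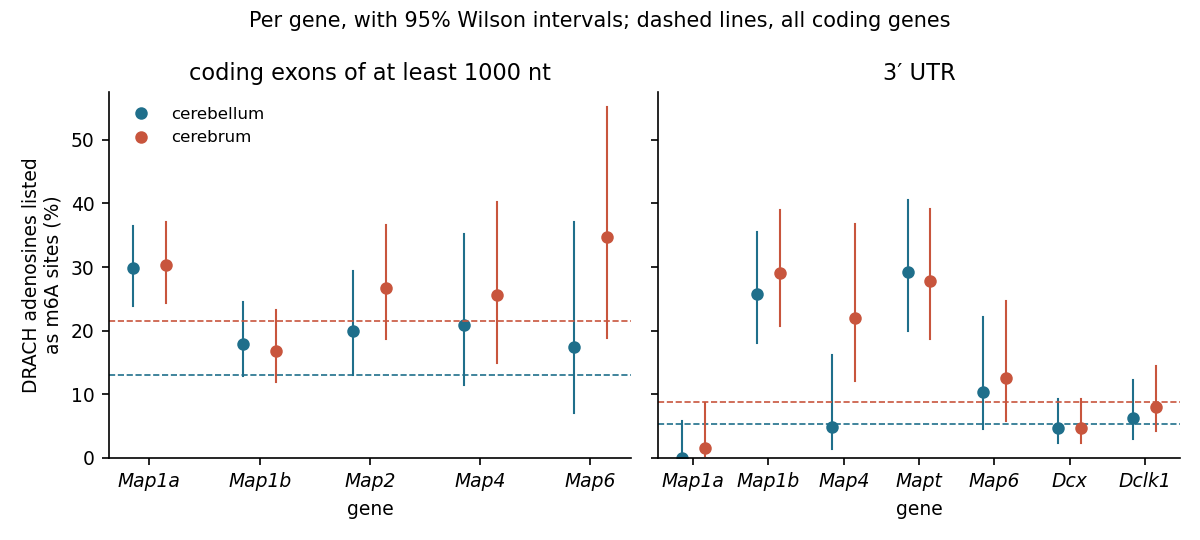
Percent of DRACH adenosines listed per gene in exons with at least 1000 coding nt (left panel) and in 3′ UTRs (right panel). The vertical axis is the percent and the horizontal axis the gene, with 95% Wilson intervals for the cerebellum and cerebrum and dashed lines for all coding genes. Map1a is high on the left (29.8% and 30.3%) and lowest on the right (0% and 1.61%), while Map1b and Mapt are high on the right (25.8% and 29.03%; 29.2% and 27.8%); Map2 is left out on the right because its longest isoform has 3 DRACH adenosines there.

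Map2 (chr1:66175273-66442583, plus strand) had most DRACH sites of its coding transcripts in an exon that only its longest complete isoform contains, while most of its cerebrum sites of any motif were intronic (122 of 168). Exon 7, of 3741 coding nt or 68.2% of the coding sequence, is present in 1 of 7 complete isoforms and separates high from low molecular weight MAP2. It held 18 cerebellum and 24 cerebrum DRACH sites out of 90 DRACH adenosines (20.0%, 13.0 to 29.4; 26.7%, 18.6 to 36.6). Each of the 18 cerebellum sites was listed in the cerebrum as well. The other coding exons of that isoform, with 42 DRACH adenosines, had 1 site in the cerebrum and none in the cerebellum. The longer 3′ UTR of another isoform had 2 of the 58 DRACH adenosines of its last exon listed, both in both libraries, at 196 and 224 nt past the stop codon.

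Map4 (chr9:109931460-110083955, plus strand) has the shortest of the very long coding exons on these longest isoforms. Exon 7, with 1134 coding nt or 33.6% of the coding sequence, held 9 and 11 of its 43 DRACH adenosines (20.9%, 11.4 to 35.2; 25.6%, 14.9 to 40.2). None of the 59 DRACH adenosines in its short coding exons was listed in either library. The 3′ UTR differed more between the lists, with 2 cerebellum and 9 cerebrum sites out of 41 (4.88%, 1.35 to 16.1; 22.0%, 12 to 36.7). Both cerebellum positions were among the 9. The intervals overlapped. Alternative exons added few sites: a first exon of 1453 coding nt had 1 and 2 of its 35 DRACH adenosines listed, and the last exon of a 4-exon isoform 2 and 2 of 53.

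Mapt (chr11:104231390-104332090, plus strand) has no very long coding exon, and all but 1 of the DRACH sites of its coding transcripts lay in the 3′ UTR. Its introns held 4 of 26 cerebellum and 10 of 31 cerebrum DRACH sites. None of its exons has more than 266 coding nt. Of 72 DRACH adenosines in the 3′ UTR of 3903 nt, the cerebellum list held 21 (29.2%, 19.9 to 40.5) and the cerebrum list 20 (27.8%, 18.8 to 39.0), 19 of them shared. The coding sequence had 1 DRACH site among 31 adenosines, in the last exon 65 nt before the stop codon and in both lists. Within 500 nt, chr11:104330246-104330745, 12 of 16 DRACH adenosines were listed in the cerebellum and 11 of 16 in the cerebrum. This cluster lies between 2059 and 2498 nt past the stop codon.

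DRACH sites near the ends of the microtubule-binding repeats were looked for at a codon motif. Repeats of MAP2, MAP4 and tau end in a motif of a proline and 3 glycines, and codons for this motif were found at 2 places in Map2, 3 in Map4 and 4 in Mapt on the longest isoforms. No DRACH site lay within 15 nt of any of these 9 places, where the sequence offers 2, 2 and 3 DRACH adenosines. With so few adenosines, and 4.55% and 4.92% listed in the short coding exons of the 8 genes, no difference from other coding sequence was detectable.

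Map6 (chr7:99267447-99337137, plus strand) had sites at both ends of its alternative transcripts. Exon 1 of the longest isoform, with 1292 coding nt, had 4 of 23 coding DRACH adenosines listed in the cerebellum and 8 in the cerebrum (17.4%, 6.98 to 37.1; 34.8%, 18.8 to 55.1), 2 of them shared. The same exon holds the 5′ UTR, where 4 of 9 DRACH adenosines were listed, the same 4 in both libraries, at GGACT or GGACC. No other gene of the set had a shared 5′ UTR site. Over the 8 genes, 5 of 39 DRACH adenosines of 5′ UTRs were cerebellum sites (12.8%, 5.60 to 26.7) and 4 of 39 were cerebrum sites (10.3%, 4.06 to 23.6). The 4 sites of Map6 made up most of these in the cerebellum and all in the cerebrum. Over all coding genes the share in 5′ UTRs was 2.17% and 3.86%. The alternative last exon of a second isoform, with 1018 coding nt, had 7 of 16 DRACH adenosines listed in the cerebellum and 5 in the cerebrum, and all 5 were shared.

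Map6 also had sites beyond exon 1, in sequence that complete isoforms splice out. An annotated transcript of the retained intron type, chr7:99267489-99272266, continues past the splice site of exon 1. On that continuation lay 13 cerebellum and 18 cerebrum sites, 9 and 13 of them DRACH and 8 DRACH sites shared. They ran from position 99269364 to 99272238. Sites on exons of transcripts without a complete coding sequence were otherwise few, with 5 in the cerebellum and 10 in the cerebrum for Map2, none shared.

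Dcx (chrX:143855842-143933311, minus strand) had the fewest DRACH sites per kb of the 8 genes. Of its 186 DRACH adenosines 5.91% were listed in each library. By that share it stood above 74.9% of the 8407 genes with at least 50 DRACH adenosines in the cerebellum and above 56.8% in the cerebrum. Its longest isoform has a 3′ UTR of 7709 nt with 151 DRACH adenosines, of which 7 were listed in each library (4.64%, 2.26 to 9.26), 6 of them shared. The 3′ UTR sites fell at both ends: 3 between 142 and 221 nt past the stop codon, and 5 between 6377 and 7543 nt. The coding sequence had 4 of 30 DRACH adenosines listed (13.3%, 5.31 to 29.7), and all 4 were listed in both libraries. Of these, 3 lay in exon 2, which encodes the start of the protein, and 1 in exon 3. The interval began above the 4.55% and 4.92% of short coding exons of the 8 genes together, which include Dcx.

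Dclk1 (chr3:55242364-55539068, plus strand) had most DRACH sites of its coding transcripts in the alternative 3′ UTRs of its long and short forms, while 79 of its 114 cerebrum sites of any motif were intronic. The last exon of the longest isoform, which encodes the kinase form, had 8 of 116 DRACH adenosines listed in the cerebellum and 10 in the cerebrum, 7 shared. The last exon of a shorter isoform, which ends before the kinase domain, had 9 and 10 of 118 listed, 8 shared. In that exon 6 sites of the cerebellum and 7 of the cerebrum lay within 500 nt, chr3:55468048-55468547. Both last exons had a DRACH site of both libraries in their coding part, 30 nt before the stop codon in the long form and 23 nt before it in the short form.

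Sites near the stop codon were a smaller share of the sites of the 8 genes than over all coding genes. Within 200 nt of the stop codon lay 18 of 224 DRACH sites of the 8 genes on complete isoforms in the cerebellum (8.04%, 5.14 to 12.3) and 18 of 250 in the cerebrum (7.20%, 4.60 to 11.1). The window held 5.62% of their DRACH adenosines, so the sites were 1.43 and 1.28 times as frequent there as the motif. On the longest isoforms alone it was 12 of 203 (5.91%, 3.41 to 10.05) and 13 of 227 (5.73%, 3.38 to 9.55), with 5.12% of adenosines. On the same basis, over all coding genes the window held 21.6% and 21.7% of sites and 10.3% of adenosines, which is 2.10-fold in each library.

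Distance from exon junctions set the sites apart in the same direction in the 8 genes and overall. At least 100 nt from the nearest junction lay 215 of 224 DRACH sites in the cerebellum (96.0%, 92.5 to 97.9) and 237 of 250 in the cerebrum (94.8%, 91.3 to 96.9), against 83.5% of their DRACH adenosines. On the longest isoforms alone it was 96.1% and 95.2% of sites and 81.4% of adenosines, and over all coding genes 93.2% and 91.8% of sites and 64.0% of adenosines. On the longest isoforms, 2 of 178 adenosines within 49 nt of a junction were listed in the cerebellum (1.12%) and 3 in the cerebrum (1.69%). Over all coding genes it was 0.359% and 0.909%. From 200 nt to under 400 nt it was 22 and 24 of 95 (23.2%, 15.8 to 32.6; 25.3%, 17.6 to 34.8). Over all coding genes this range had 11.4% and 19.1%, and the cerebrum interval of the 8 genes included the latter. At 400 nt or more, 16.4% (14.2 to 18.8) and 18.2% (15.9 to 20.7) of 978 adenosines were listed, compared with 5.31% and 8.96% over all coding genes. Exceptions near a junction included a Map2 site 8 nt from the end of exon 7 and a Dcx site 39 nt from the start of exon 2, both in both lists.

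**Figure D5:**
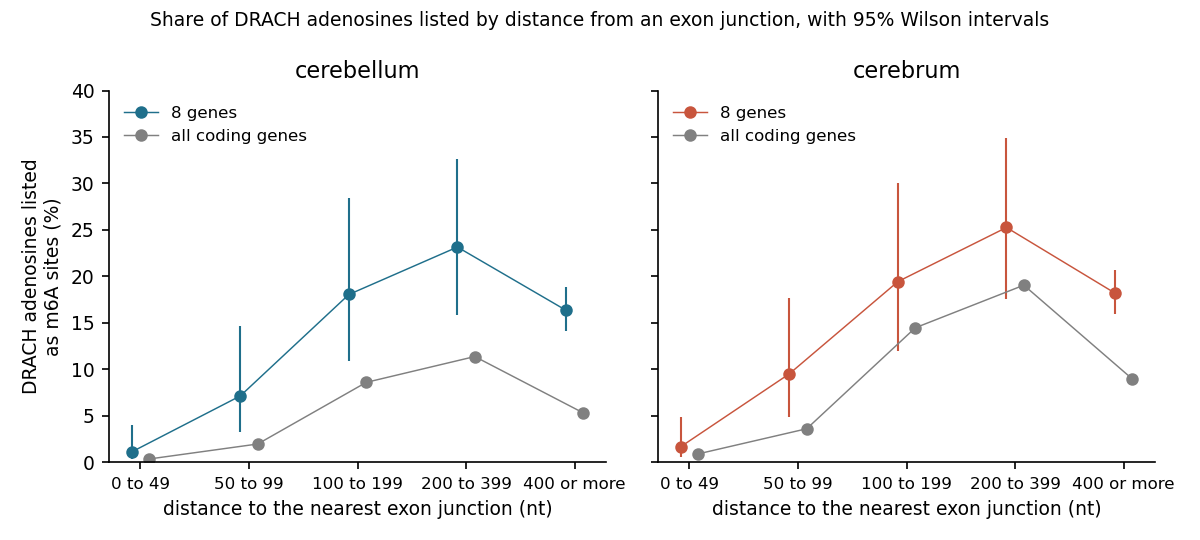
Percent of DRACH adenosines listed (vertical axis) by distance to the nearest exon junction in nt (horizontal axis) in the cerebellum (left) and cerebrum (right), for the 8 genes (coloured) and all coding genes (grey), with 95% Wilson intervals. The 8 genes rise from 1.12% and 1.69% within 49 nt to 23.2% and 25.3% from 200 nt to under 400 nt.

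The 5-mer at the site separated adenosines of the 8 genes in the same way in both libraries. DRACH adenosines followed by CT were cerebellum sites in 31.0% of 419 cases (26.8 to 35.6) and cerebrum sites in 34.1% (29.8 to 38.8). Those followed by CA were listed at 8.88% and 10.3% of 552, and those followed by CC at 5.50% and 6.19% of 436. Over all coding genes the shares were 8.30% and 13.6% before CT, 3.05% and 5.44% before CA, and 1.87% and 3.46% before CC. The most often listed 5-mer was GGACT, with 36 of 71 in the cerebellum (50.7%, 39.3 to 61.99) and 42 of 71 in the cerebrum (59.2%, 47.5 to 69.8), against 11.1% and 19.5% over all coding genes. AGACT followed with 30 and 35 of 89, and GAACT with 27 and 26 of 71. No AAACC adenosine was listed in either library among 89. The same held for TAACA, with 42 adenosines, and for TAACC, with 31. Over all coding genes AAACC was listed at 0.494% and 1.01%, TAACA at 0.623% and 1.18%, and TAACC at 0.211% and 0.453%. The absence in the 8 genes was not separated from these low shares, which the intervals included. Every one of these 5-mers has the form DRACH, so the share listed varied widely within the motif. Outside DRACH, 36 of 15663 adenosines of the 8 genes were listed in the cerebellum (0.230%) and 73 in the cerebrum (0.466%). At DRACH it was 14.4% and 16.1%. Over all coding genes, 0.121% and 0.359% of adenosines outside DRACH were listed.

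Codon position made a smaller difference. In very long coding exons of the 8 genes, over all complete isoforms, DRACH adenosines at the first codon position were listed at 14.5% (10.2 to 20.2) in the cerebellum and 15.5% (11.1 to 21.3) in the cerebrum. At the second position it was 25.8% (20.7 to 31.7) and 29.2% (23.8 to 35.2), and at the third 26.8% (20.1 to 34.8) and 27.5% (20.8 to 35.5). The first position was lowest in both libraries. Its interval lay below that of the second in each.

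Intronic sites of the 8 genes were mostly outside DRACH and rarely shared. In all, 10 of 62 intronic sites in the cerebellum (16.1%, 9.004 to 27.2) and 51 of 281 in the cerebrum (18.1%, 14.1 to 23.1) were DRACH. Over all intronic sites listed, the DRACH share was 14.9% and 12.8%. In the 8 genes 8 intronic positions were shared, and 6 of these were DRACH. They were 12.9% of the cerebellum and 2.85% of the cerebrum intronic sites, near the 11.4% and 3.32% over all intronic sites. Map2 had 18 cerebellum and 122 cerebrum sites over 251 kb of intron, and Dclk1 had 18 and 79 over 281 kb. Per kb of intron this is 0.0718 and 0.486 for Map2, and 0.0640 and 0.281 for Dclk1. Map1a, with 9.07 kb of intron, had none, and Map4, with 137 kb, had 2 in the cerebrum only. Mapt had 8 and 24, with 3 shared, all DRACH.

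Of the 776 positions, 3 do not hold an A in the reference, all intronic and each in 1 library. They are shown, with the listed base as the middle letter of the capitals, because GLORI calls are made at adenosines. The study also called sites on a PWK/PhJ version of the genome, which could detect adenosines present only in that strain. Whether these positions are such adenosines was not tested.
Mapt, cerebellum, chr11:104312383-104312411, plus strand: gggagcttctgaGAGCTgagctgacatct
Dclk1, cerebrum, chr3:55269880-55269908, plus strand: tcagagagccacTCGTTctgtcctcacac
Dclk1, cerebellum, chr3:55372395-55372423, plus strand: accacaccacacACGCAtcatacacacat

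The other genes of the microtubule system were summarised from a list of 48: relatives of the 8 genes, stathmins, tubulins, plus-end and minus-end binders, dynein regulators, severing enzymes and kinases of these proteins. DRACH sites lay on 42 of 48 in the cerebellum and 47 of 48 in the cerebrum, with 347 and 497 sites, 314 of them shared. The median was 4 and 6 DRACH sites per gene, compared with 25 and 38.5 for the 8 genes. Over all coding genes with a site it was 1 and 3. These numbers were not adjusted for transcript length. Of their DRACH sites on coding transcripts, 22.4% and 23.3% lay in very long coding exons, which 13 of the 48 have, and 57.0% and 55.9% lay in 3′ UTRs. More DRACH sites were listed in the cerebrum for 39 of the 48 and in the cerebellum for 3, and the cerebrum list was longer as a whole. The share of all coding genes with a DRACH site, or with more in the cerebrum, is not given here.

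The 5 with the most DRACH sites were Camsap1, Map9, Cdk5r1, Camsap2 and Ttbk2. Camsap1 and Camsap2, which bind microtubule minus ends, had 23 and 40 and 36 and 37 DRACH sites, with 14 and 23 and 16 and 18 of them in very long coding exons. Map9, a spindle and cilium protein, had 35 and 39, of which 33 and 35 lay in the 3′ UTR. Cdk5r1, the activator of the tau kinase CDK5, had 33 and 38, and 47.1% and 54.3% of its 70 DRACH adenosines were listed. Ttbk2, a tau tubulin kinase, had 26 and 28.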

How the data were processed

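GLORI converts unmethylated adenosines by deamination before sequencing. Per the labels and the methods, the authors sequenced 1 library from cerebellum and 1 from cerebrum, called sites with GLORI-tools on mm10 and a PWK/PhJ version of it, and kept the union of sites with a methylation rate over 0.1 and a read count over 8. The deposited values are genomic positions, without rates, read counts or scores. The site is the end coordinate of each entry, which held A in GRCm38 at 99.7% of cerebellum and 99.8% of cerebrum sites. Sites were placed with GENCODE M21, another release than the study used, on the longest isoform annotated from 5′ to 3′ UTR. Exons with at least 1000 coding nt were called very long and those with under 400 coding nt short. Long last exons with little coding sequence thus counted as short, such as exon 10 of Mapt, 4119 nt long with 216 coding nt. Python 3.11.15, numpy 2.4.6, pandas 2.3.3, scipy 1.17.1 and matplotlib 3.10.9 were used. The placement was tested on 4384 DRACH adenosines drawn from the annotation's sequences of 439 transcripts and mapped to the genome and back. The region was recovered at 100% of them. The same coding limits defined the region on both sides, so this checks the mapping only. These limits held 1 reading frame in 438 of the 439 transcripts. The 8 genes, the other microtubule genes and the marker lists were chosen with earlier results of these data known. All 8 genes are named, and of the other 48 the 5 with the most DRACH sites. Sequences follow a rule of the nearest shared site to the stop codon, the densest neighbourhood in each very long exon and sites without A. Other motifs, exon lengths, windows, isoforms and each gene left out were tried as alternatives.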

Additional observations from a re-analysis of the deposited data

How the results depend on the processing

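Of 162 alternative values of 28 results, 124 stayed within the counting interval of the value reported (for counts, within 1.5 times), 38 moved beyond it and 0 changed sign. With exonic sites only, 373 cerebrum sites of the 8 genes remained, the DRACH share rose to 81.6% in the cerebellum and 72.1% in the cerebrum, and the shared part to 76.4% and 59.0%. With DRACH sites only, coding sequence held 57.1% and 47.5% and introns 4.08% and 15.9%, and 3′ UTRs held 28.8% in the cerebrum. With sites of both libraries only, coding sequence held 57.0%, 3′ UTRs 33.3% and introns 3.51%. With the first base restricted to A or G (RRACH), the share of sites in the motif was 62% and 42.7%, and 16.7% and 18.6% of its adenosines were listed. With GGACH, GAACH and AGACH only, 20.6% and 23.3% were listed. Over all complete isoforms, an alternative chosen after seeing the data, 14.2% of DRACH adenosines and 10.9% of those in 3′ UTRs were listed in the cerebrum. With a minimum of 2000 coding nt, very long coding exons held 47.8% and 44.8% of DRACH sites, and without Map1a 41.5% and 41.7%. In very long coding exons the share listed was 18.9% in the cerebellum without Map1a and 29.1% in the cerebrum without Map1b. In 3′ UTRs it was, without Map1b, 8.57% for the cerebellum and 10.6% for the cerebrum, 8.81% in the cerebellum without Mapt, and 16.7% in the cerebrum without Dcx. A window of 400 nt around the stop codon held 12.5% and 11.2% of DRACH sites, and 89.3% and 89.2% lay at least 200 nt from a junction. Wider windows, longer minimums and restricted motifs change the quantity by their construction. No paired analysis was possible because each tissue has 1 library and no replicate numbers. The depth behind a site is unknown, so the difference in list length between the libraries limits every comparison of the tissues.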

Other observations

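Sites of the 8 genes outside DRACH held a few 5-mers more than once. GGATT held 4 exonic sites in each library, the same 4 positions. GGACG, which differs from DRACH in its last base, held 4 and 6 exonic sites, 3 of them shared, and 1 of the shared ones lies in the 5′ UTR of Map6 among its GGACT and GGACC sites. AAAAA held 1 and 6 exonic sites, with 1 shared. Of DRACH positions on the longest isoforms of the 8 genes, 178 were listed in both libraries. Some sites also lay inside a second annotated gene on the same strand and were counted for the gene described here, with 10 in Dclk1, 2 in Map2, 1 in Map1b and 1 in Map4.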
